A study of Mus musculus with 6 samples.

Results

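Neutrophils are drawn into inflamed tissue by a group of small secreted proteins, the CXC chemokines that carry the residues Glu-Leu-Arg before their first cysteines. These ligands bind G protein-coupled receptors on neutrophils, mainly CXCR2 and in part CXCR1, and the cells then leave the blood and migrate up the gradient. In the inflamed gut the ligands are made by epithelial cells, fibroblasts, macrophages and by neutrophils themselves, under the control of NF-kB and of cytokines such as TNF, interleukin 1 and interleukin 17.

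The 8 genes described here are 6 ligands (Cxcl1, Cxcl2, Cxcl3, Cxcl5, Ppbp and Cxcl15) and 2 receptors (Cxcr1 and Cxcr2), taken by gene symbol from a table of 54532 genes. The RNA came from the colon of C57BL/6 mice, 56 days old. Of the 6 sequencing libraries 3 carry the label wild type (WT) and 3 the label Il10 knockout (IL10-/-), and no treatment is named. Interleukin 10 restrains immune responses, and its loss leads to colitis in mice. The series compares the colon transcriptomes of the genotypes; the knockout allele is not named in the labels, nor whether each library came from its own mouse, so p-values measure the spread between libraries.

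Values are FPKM, fragment numbers divided by gene length and library size, on the authors' scale. Each library held 13107941 to 15797928 reads, worked back from those values. The library size behind the FPKM values was 0.836 to 1.23 times these totals. All 14 listed colonic epithelial markers were detected in both groups. Il10 itself, at 0.173 to 0.757 FPKM in WT, reached 10.6 to 14.5 FPKM under the knockout label; since the deleted part is not given, this does not check the labels, and the directions below rest on the labels as given. The WT libraries resembled each other less (Pearson's r across genes 0.795 to 0.864) than the knockout ones did (0.935 to 0.961). WT library 1 was closer to the knockout libraries (0.872 to 0.91) than to the other WT libraries (0.826 and 0.864), as was WT library 2 (0.829 to 0.887 against 0.795 and 0.826). WT library 3 stood out by its summed smooth muscle markers, at 9110 FPKM against 183 to 1490 in the other libraries. Mitochondrial reads made up 43.4% of WT library 3, against 8.61% to 22.0% of the others. What this did to its other values was not tested.

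All 6 ligand genes lie on the plus strand of chromosome 5 within 147 kb, and the 2 receptor genes lie 30.5 kb apart on chromosome 1. Coordinates in the table equal those of GENCODE M21 (GRCm38) for all 8 genes. Promoter windows from RefSeq (GRCm38.p6), reaching from 250 bases before to 50 bases after the annotated start, were at hand for 7 of the 8 genes, all but Cxcl5. The windows of Cxcl1, Cxcl2 and Cxcl3, the 3 genes that passed the test reported below, are shown from base 130 to base 11 before the start. Capitals mark GGGAATTTCCC, the longest run of letters that the 3 genes share within 250 bases before their starts, and a TATA-like match, ATAAAAG. The shared run has the form of an NF-kB site. The 3 stretches are chr5:90891115-90891234, chr5:90903769-90903888 and chr5:90785971-90786090, in that order, all on the plus strand.
Cxcl1: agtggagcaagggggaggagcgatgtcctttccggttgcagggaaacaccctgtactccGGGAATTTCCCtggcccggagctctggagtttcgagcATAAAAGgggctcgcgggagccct
Cxcl2: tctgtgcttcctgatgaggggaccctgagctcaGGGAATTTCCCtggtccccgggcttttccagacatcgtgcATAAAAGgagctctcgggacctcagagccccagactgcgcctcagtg
Cxcl3: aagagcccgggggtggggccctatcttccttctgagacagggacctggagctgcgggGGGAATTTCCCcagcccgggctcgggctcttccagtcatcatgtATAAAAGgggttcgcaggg

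The shared run stood at positions -71 to -61 from the RefSeq start in Cxcl1, -97 to -87 in Cxcl2 and -73 to -63 in Cxcl3. Searched on both strands, its 11 letters occurred in 14 of 32851 promoter windows (0.0426%). Its presence in these 3 follows from how it was found. The windows of Ppbp, Cxcl15, Cxcr1 and Cxcr2 did not hold it. The TATA-like letters were in 5.42% of windows. They lay on the gene strand in Cxcl1, Cxcl2 and Cxcl3 and on the other strand in Ppbp and Cxcr1. Only this exact run was counted. On the gene strand the Ppbp window also held TATAAAAAG and that of Cxcl15 TATAAAG, which the search passed over. The exact run thus does not show which of these genes have a TATA-like stretch. The AP-1 letters TGACTCA were in 5.20% of windows and in 0 of these 7. The motifs were chosen after the windows and the expression values had been seen, and a match is a stretch of letters, not evidence of binding. Of the 14 genes with the shared run in their window, 6 had enough RNA to be tested: the 3 chemokines, and Il16, Kremen2 and Zfp84. Those 3 others were not called, with log2 fold changes of 0.18, 0.29 and -0.28 (adjusted p = 0.89, 0.908 and 0.772 in limma).

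Cxcl1, Cxcl2 and Cxcl3 rose in the libraries labelled Il10 knockout, and Cxcl5 and Cxcr2 had values there above those of every WT library without passing the threshold. Ppbp, Cxcl15 and Cxcr1 were at or near 0 reads. Of the 8 genes 5 had a mean of at least 1 FPKM over the libraries and were tested among 12668 genes with limma on log2(FPKM + 1), where log2 fold changes are knockout minus WT and understate the change of low genes. All 5 passed that filter through the knockout libraries, since each averaged under 1 FPKM in WT. Of the 12668 genes, 23 (0.182%) were called higher and 0 lower by limma with Benjamini-Hochberg adjustment at 0.05. Of the 5 tested members 3 were among those 23. At an unadjusted p under 0.05 all 5 were higher, as were 6.14% of the tested genes, while 4.03% (510 genes) were lower. All 5 had groups that did not overlap, as did 8.84% of the tested genes in that direction. The median log2 fold change of the 5 was 3.34, against 0.04 over all genes. In bulk tissue, more cells of a type and more RNA per cell cannot be told apart.

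**Figure D1:**
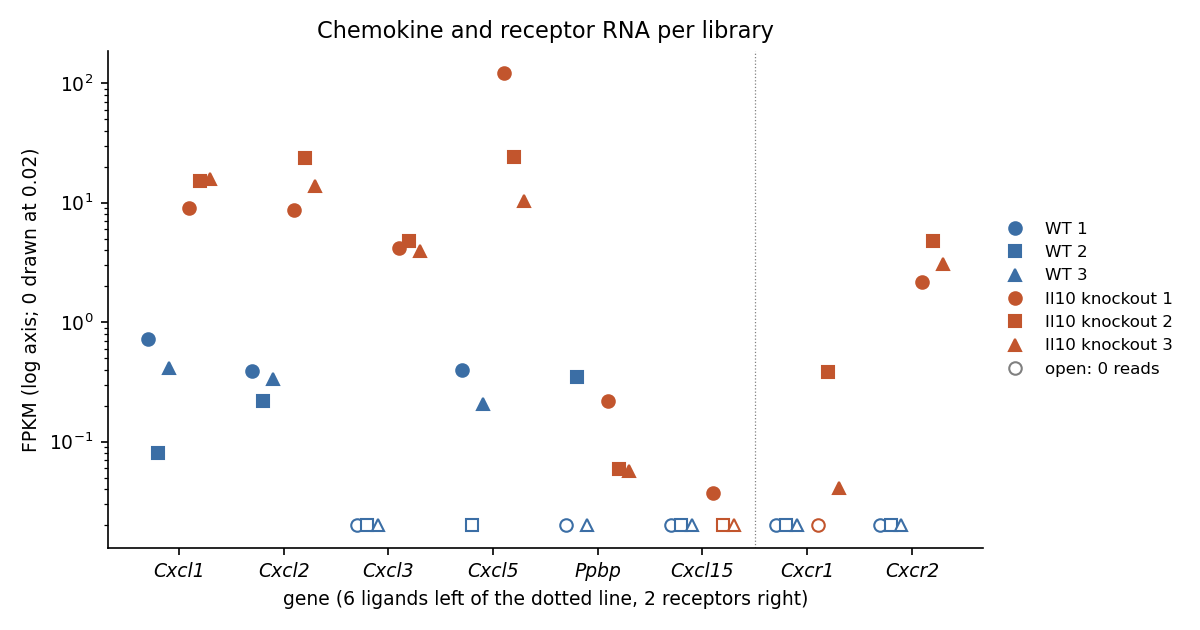
FPKM (log axis) of the 6 ligand and 2 receptor genes in each of the 6 libraries; blue points are WT and orange points Il10 knockout libraries, and open symbols are libraries with 0 reads. For Cxcl1, Cxcl2, Cxcl3, Cxcl5 and Cxcr2 every knockout point lies above every WT point.

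Cxcl1, also known as KC, is a main CXCR2 ligand of the mouse. WT libraries 1 to 3 had 0.727, 0.0808 and 0.413 FPKM, and knockout-labelled libraries 1 to 3 had 9.08, 15.1 and 15.9 FPKM. These values rested on 34 reads in WT and 1146 in the knockout group. The groups did not overlap, and knockout library 1 was the lowest of its group. The means were 0.407 ± 0.323 and 13.4 ± 3.72 FPKM (SD, n = 3), a ratio of 32.8. The log2 fold change was 3.34 (SE 0.29, 95% interval 2.64 to 4.04, adjusted p = 0.0157 in limma).

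Cxcl2, or MIP-2, is the close relative of Cxcl1 that activated macrophages and neutrophils produce. WT libraries 1 to 3 had 0.389, 0.22 and 0.337 FPKM, and the knockout-labelled ones had 8.73, 23.8 and 13.8 FPKM. The groups did not overlap, and knockout library 2 was the highest, 2.72 times knockout library 1. Mean levels were 0.315 ± 0.0869 and 15.4 ± 7.65 FPKM (SD, n = 3), from 28 and 1465 reads, a ratio of 48.9. The log2 fold change was 3.54 (SE 0.35, interval 2.71 to 4.37, adjusted p = 0.024 in limma).

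Cxcl3, the third ligand of the same subgroup, had 0 reads in all 3 WT libraries. Knockout-labelled libraries 1 to 3 had 4.17, 4.78 and 3.96 FPKM, from 184, 263 and 226 reads. It was the least variable member within that group, with a highest to lowest ratio of 1.21. Taking 3 reads over the 3 WT libraries as the floor (0.0203 FPKM), its mean of 4.3 ± 0.426 FPKM (SD, n = 3) was at least 212-fold higher. The fitted log2 fold change of 2.40 (SE 0.21, adjusted p = 0.0157 in limma) depends on the pseudocount and understates that bound.

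Cxcl5, or LIX, is a ligand made mainly by epithelial cells. WT libraries 1 to 3 had 0.399, 0 and 0.208 FPKM, and the knockout-labelled ones had 121, 24.3 and 10.3 FPKM. It had the highest mean of the 8 genes in that group, 51.9 ± 60.3 FPKM (SD, n = 3), and the widest spread, with knockout library 1 at 11.7 times knockout library 3. Reads numbered 17 in WT and 2847, 711 and 314 in knockout libraries 1 to 3. The ratio of means was 257, and the log2 fold change of 4.78 (SE 0.80, interval 2.88 to 6.68) was not past the threshold (adjusted p = 0.103 in limma). Without knockout library 1, the library with the highest value, it was 3.83 (SE 0.41) with an adjusted p of 0.0466. Of the 6 fits with 1 library left out, only this 1 called Cxcl5. In the others its adjusted p was 0.104 to 0.368 in limma.

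The remaining ligands were scarcely detected. Ppbp encodes the precursor of the platelet chemokine CXCL7. It had 5 reads in WT, all in library 2 (0.35 FPKM), and 3, 1 and 1 reads in the knockout-labelled libraries, so the groups overlapped (exact two-sided permutation p = 1.0 for 3 against 3 libraries). Cxcl15, a chemokine known from lung epithelium, had 1 read in all, in knockout library 1. Its 0 reads in WT allow up to 0.0334 FPKM, and a difference was not detectable at this depth. The 9 platelet and megakaryocyte markers summed to 2.93 to 18.0 FPKM in WT and 6.79 to 19.3 in the knockout group, mostly Pf4, and Gp9 and Gp1bb had 0 reads in WT. The 7 lung and airway markers summed to 0.518 to 1.04 and 1.37 to 2.46 FPKM, with Sftpa1, Sftpd and Scgb3a2 at 0 in all 6 libraries.

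**Figure D2:**
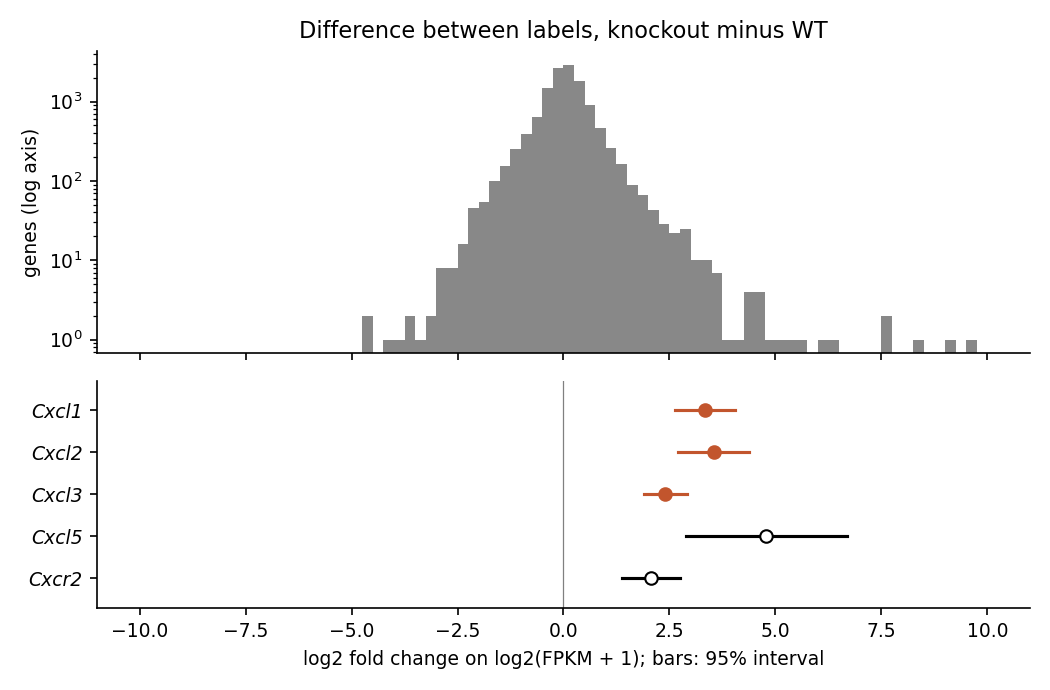
Upper panel, number of genes (log axis) by log2 fold change of knockout minus WT over the 12668 tested genes. Lower panel, the 5 tested members with 95% intervals, filled where the adjusted p was under 0.05; all 5 lie at 2.07 or more, while the 99th percentile of all genes is 2.23.

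Of the receptors, only Cxcr2 had a mean above 1 FPKM. Cxcr2, the receptor through which neutrophils sense these ligands, had 0 reads in the 3 WT libraries and 83, 227 and 154 reads in the knockout-labelled ones. Its levels there were 2.16, 4.74 and 3.10 FPKM, a mean of 3.33 ± 1.3 (SD, n = 3), and knockout library 2 was the highest. With the same floor (0.0233 FPKM here) it was at least 143-fold higher. The log2 fold change of 2.07 (SE 0.29, interval 1.39 to 2.76) did not pass the threshold (adjusted p = 0.0687 in limma). Cxcr1, the second receptor of the family, had 0, 9 and 1 reads in the knockout libraries and 0 in WT, which allows up to 0.0476 FPKM there. Its groups overlapped at 0 (exact two-sided permutation p = 0.4). For the 5 members whose groups did not overlap, the same exact test gave p = 0.1, the smallest that 3 against 3 libraries allow.

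Of 14 tested neutrophil markers 2 were called higher in the knockout-labelled libraries by limma, the calprotectin subunit genes S100a8 and S100a9 (adjusted p = 0.00226 and 0.000486). The other tested markers were not called, among them Ly6g, Csf3r and Retnlg (adjusted p = 0.385, 0.103 and 0.0647). The 19 listed markers summed to 185, 7.19 and 45.0 FPKM in WT libraries 1 to 3 and to 1990, 1820 and 1180 FPKM in the knockout-labelled ones. S100a8, S100a9 and Ly6g made up most of the sum in each knockout library. Of the 14 tested 12 had separate groups with higher values in the knockout libraries, against 8.84% of all tested genes. That count is not free of the filter. S100a9, Mmp8, Retnlg and Stfa2l1, at 0 in WT, were among those that passed it only through the knockout libraries. So were S100a8, at 0 to 0.223 FPKM in WT, and Csf3r, which averaged under 1 FPKM there (1.08, 0.273 and 0.858). In WT 7 of the 19 had 0 reads (S100a9, Mmp8, Retnlg, Ngp, Elane, Mpo and Stfa2l1). In the knockout group Elane and Mpo, enzymes of the granules formed early in neutrophil development, stayed at 0 to 0.312 and 0 to 0.0231 FPKM. S100a8, the most abundant listed marker, was at 1150, 671 and 282 FPKM in knockout libraries 1 to 3. That order is the one of Cxcl5, chosen for mention after the values were seen, whereas Cxcr2 and Cxcl2 were highest in knockout library 2. The 12 monocyte and macrophage markers summed to 181 to 524 FPKM in WT and 353 to 713 in the knockout group. Separate groups with higher values in the knockout libraries were found for 1 of 11 tested, against 8.84% of all tested genes. So small a count is not read as a result. Epithelial markers summed to 2860 to 43500 and 8900 to 18200 FPKM. Car1 alone was at 31500 FPKM in WT library 2 and 5720 in knockout library 1, against 117 to 544 in the others. The 10 smooth muscle markers summed to 1310 to 9110 and 183 to 1040 FPKM, and 9 of the 10 had separate groups with lower values in the knockout libraries, against 7.89% of all tested genes, with 0 called by limma (3 lower at an unadjusted p under 0.05). Fibroblast markers summed to 81.2 to 266 and 84.1 to 124 FPKM, endothelial markers to 27.7 to 74.6 and 27.6 to 51.0, and mast cell markers to 3.14 to 16.6 and 2.70 to 26.1. The part of these cell types in the chemokine values was not tested.

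From the start of Cxcl5 to the end of Cxcl2 the table lists 11 genes, of which 7 are protein coding: the 6 ligands and Pf4, which encodes platelet factor 4. Counted from the Cxcl5 start (GRCm38 chromosome 5, 90759360), Ppbp starts at 9.2 kb, Pf4 at 13.1 kb, Cxcl3 at 26.7 kb, Cxcl15 at 35.2 kb, Cxcl1 at 131.9 kb and Cxcl2 at 144.5 kb. Pf4 had 17.4, 2.31 and 15.1 FPKM in WT and 17.3, 5.91 and 8.93 FPKM under the knockout label. Its groups overlapped, and the log2 fold change was 0.12 (adjusted p = 0.973 in limma). Ppbp and Pf4, with overlapping groups, lie between Cxcl5 and Cxcl3, whose groups were separate. Cxcl15 lies between Cxcl3 and Cxcl1. Ppbp and Cxcl15 had too few reads to show whether they differed between the labels. The difference between neighbours in response was not itself tested.

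**Figure D3:**
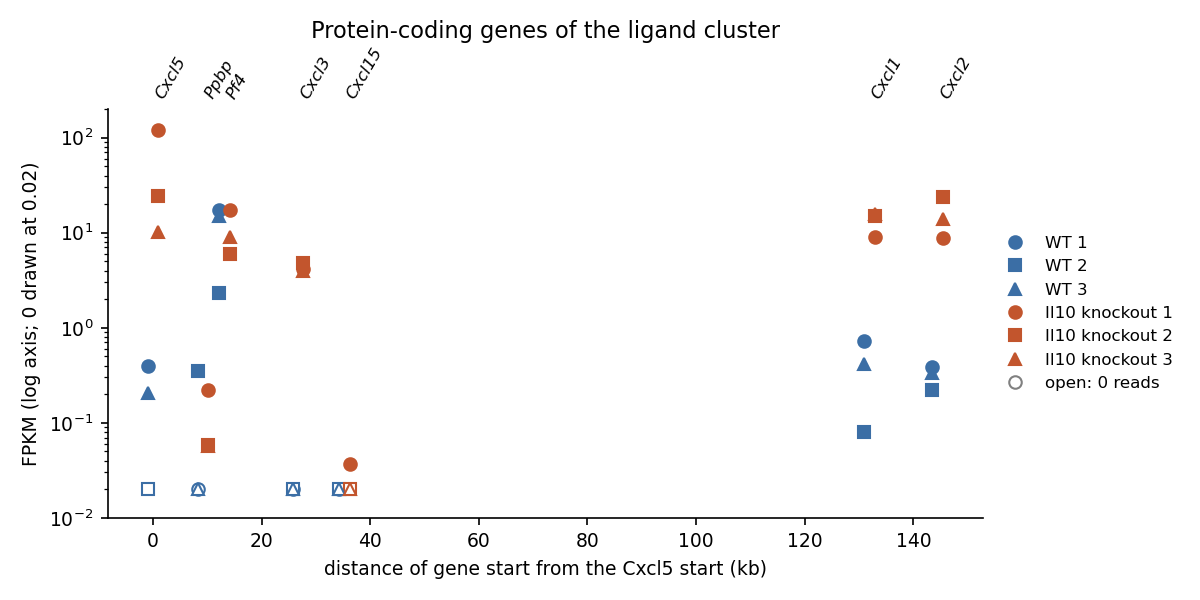
FPKM (log axis) of the 7 protein-coding genes of the chromosome 5 cluster against the distance of each gene start from that of Cxcl5 in kb; blue (drawn 1 kb to the left) is WT, orange (1 kb to the right) is Il10 knockout, and open symbols are 0 reads. Orange points lie above all blue ones at Cxcl5, Cxcl3, Cxcl1 and Cxcl2, and the colours mix at Ppbp and Pf4.

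The mix of ligands differed between the libraries labelled knockout. Summed over the 6 ligands, levels were 1.52, 0.65 and 0.957 FPKM in WT and 143, 68.0 and 44.0 FPKM in the knockout libraries 1 to 3. Cxcl5 made up 84.5% of the sum in knockout library 1, 35.7% in library 2 and 23.5% in library 3. Cxcl1 made up 6.34%, 22.2% and 36.1%, and Cxcl2 6.09%, 35.0% and 31.3%. On the deposited scale Cxcl5 led in knockout library 1 and Cxcl1 in library 3, while Cxcl5 and Cxcl2 were nearly level in library 2, and Cxcl3 was behind the other 3 in each. In the group means the order was Cxcl5, Cxcl2, Cxcl1, Cxcl3 and Cxcr2. Cxcl5, Cxcl2 and Cxcl1 changed places between libraries, and their means differed by less than the SD of Cxcl5, while in knockout library 2 Cxcl3 (4.78 FPKM) and Cxcr2 (4.74 FPKM) were level.

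Gene length weighs on that order. The table divides reads by the exons of all annotated transcripts, and for Cxcl1, Cxcl2 and Cxcl3 a retained-intron transcript makes that length equal to the whole gene: 1875, 2068 and 3498 bases. The principal protein-coding transcripts in GENCODE M21 measure 953, 1109 and 1016 bases. For Cxcl5 the lengths are 1863 and 1575 bases, and for Cxcr2 they are 3048 and 3046. Were all reads from the principal transcripts, which the files do not show, the knockout means would be 26.3 ± 7.32 FPKM for Cxcl1, 28.8 ± 14.3 for Cxcl2, 14.8 ± 1.47 for Cxcl3 and 61.4 ± 71.3 for Cxcl5 (SD, n = 3). Cxcl3 would then lie 3.44 times higher than in the deposited values, and above Cxcl5 in knockout library 3 (13.6 against 12.2 FPKM). In knockout library 2 Cxcl5, at 28.7 FPKM, would fall behind Cxcl2 (44.3) and Cxcl1 (29.8). The order of the group means would stay as it was. This rescaling was chosen after the data had been seen, and it leaves the ratio between libraries of each gene unchanged.

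**Figure D4:**
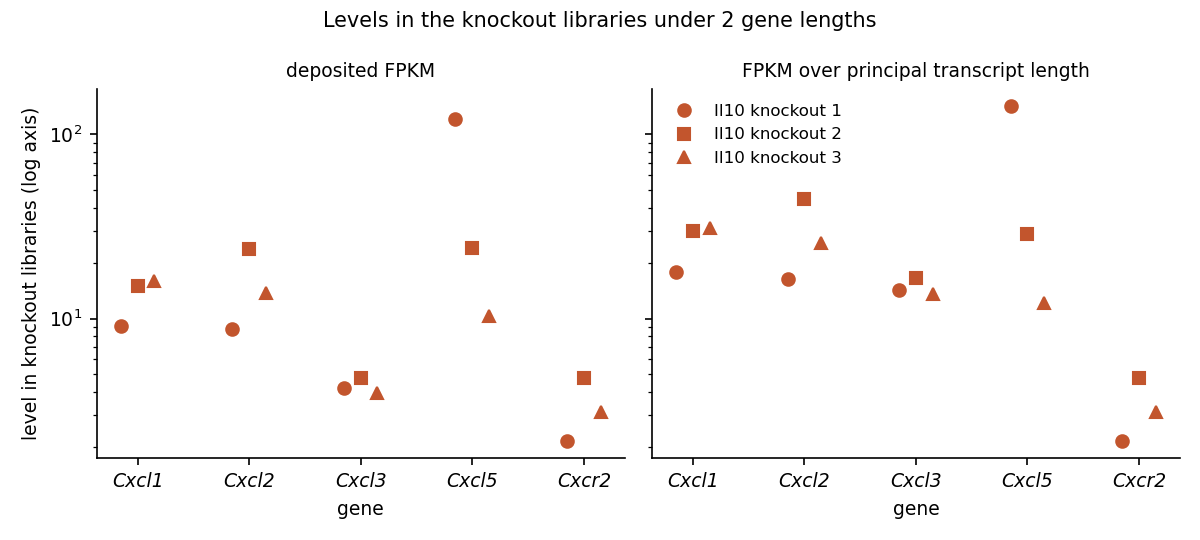
Levels (log axis) of the 4 detected ligands and Cxcr2 in the 3 libraries labelled knockout, as deposited (left) and over the length of the principal transcript (right). Cxcl3 moves up from a mean of 4.3 to 14.8 FPKM, nearer to Cxcl1 at 26.3.

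Sequence shared between genes could also move reads. Of the 36-base stretches of the principal Cxcl2 transcript, 75 (6.98%) also occur in transcripts of Cxcl3, and 7.65% of those of Cxcl3 occur in Cxcl2. The principal Cxcl1 transcript shared none with any other gene. Cxcr2 shared 10.4% with transcripts of many other genes, Cxcl5 3.96% and Cxcl15 1.43%. Neither the read length nor the handling of such reads is known here. The separate values of Cxcl2, Cxcl3, Cxcl5, Cxcl15 and Cxcr2 are therefore uncertain. Only the principal transcripts of these genes were searched, whereas the gene lengths of Cxcl1, Cxcl2 and Cxcl3 also take in retained introns. The shares thus do not bound the uncertainty.

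Across the 6 libraries the members with separate groups followed each other, which describes mostly the gap between the labels. Pearson's r of log2(FPKM + 1) with Cxcr2 was 0.999 for Cxcl2, 0.982 for Cxcl1, 0.981 for Cxcl3 and 0.841 for Cxcl5. Among 11224 tested protein-coding genes, those most like Cxcl2 included Cxcr2 and Mmp7 (a matrix metalloproteinase, r = 0.995). Those most like Cxcr2 included Cxcl2 and the serine protease gene Prss22 (0.996). For Cxcl1 they were Rac3 (0.989), Herpud1 (0.987) and Cxcl2 (0.987). For Cxcl3 they were S100a9 (0.999), Sprr2h (0.995) and Gml (0.995), and for Cxcl5 Trim10 (0.995), Ak4 (0.984) and Dcp2 (0.983). All points share the same 6 libraries.

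Genes that act before and after these chemokines were described through 7 lists with 66 tested genes. None was called in either direction (limma; 21 higher and 2 lower at an unadjusted p under 0.05), voom called 0, and a weight per library gave 4 calls higher and 1 lower. Groups were separate with higher values in the libraries labelled knockout for 20 of the 66 (30.3%, against 8.84% of all tested genes), and with lower values for 2 (against 7.89%). The count of 20 is not free of the filter, since some of these genes averaged under 1 FPKM in WT. Of 10 tested upstream cytokines and receptors, 7 had separate groups with higher values, and the median log2 fold change was 1.55. Tnf, which induces these ligands, had 3.74, 1.20 and 2.83 FPKM in WT and 21.6, 39.5 and 20.6 under the knockout label (log2 fold change 2.98, SE 0.39, adjusted p = 0.0586 in limma). Il1b was at 4.29, 0.477 and 0.974 against 9.18, 58.9 and 32.3 FPKM (adjusted p = 0.201), highest in knockout library 2. Il17a, which acts on epithelium to raise CXC chemokines, had 0 reads in WT and 0.812, 4.34 and 2.04 FPKM in the knockout libraries (adjusted p = 0.299). It thus passed the filter only through the knockout libraries.

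Of 12 genes for chemokine transcription and mRNA stability, 5 had separate groups with higher values, against 8.84% of all tested genes (median 0.69). Zc3h12a, whose product Regnase-1 degrades inflammatory mRNAs, was at 5.10 to 11.7 FPKM in WT and 48.0 to 73.4 under the knockout label (log2 fold change 2.78, SE 0.35, adjusted p = 0.0537 in limma). Cebpb and Hif1a had log2 fold changes of 0.77 and 1.20 (adjusted p = 0.433 and 0.432). Of 13 genes for CXCR2 signalling and desensitisation 2 had separate groups with higher values, against the same 8.84%, with a median of 0.42. So small a count is not read as a result. The kinase gene Fgr showed a log2 difference of 0.96 and Prex1, a Rac exchange factor gene, one of 0.55 (adjusted p = 0.517 and 0.533). Both Fgr and Prex1 had overlapping groups.

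Of 9 adhesion genes 3 were separate with higher values, against 8.84% of all tested genes (median 1.01). These were Icam1, an endothelial ligand of leukocyte integrins, Itgam, the alpha chain of Mac-1, and the neutrophil surface gene Cd177. Their log2 fold changes were 1.41, 1.15 and 3.32, with an adjusted p of 0.306, 0.36 and 0.455. The selectin genes Sele and Selp averaged under 1 FPKM and were not tested. Of 8 genes for other neutrophil attractant receptors and lipid mediators 3 were separate with higher values, against the same 8.84% (median 0.73). They were Ltb4r1, the leukotriene B4 receptor gene (0.222 to 1.14 against 3.34 to 6.20 FPKM, log2 fold change 1.87, adjusted p = 0.103), and the formyl peptide receptor genes Fpr2 and Fpr1 (2.91 and 1.83, adjusted p = 0.261 and 0.34). All 3 averaged under 1 FPKM in WT and so passed the filter only through the knockout libraries.

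Of 8 other CXC chemokines and receptors all had a log2 fold change above 0 (median 0.85), but none had separate groups. Cxcl9, a T cell attractant, was at 44.4 FPKM in WT library 1, above the 27.2 FPKM of knockout library 1. Cxcl16 and Cxcr6, a ligand and its receptor on T cells, had log2 fold changes of 0.95 and 0.77 (adjusted p = 0.475 and 0.489). Of 6 tested atypical receptors and genes of the retention axis, 2 had separate groups with lower values, against 7.89% of all tested genes (median -0.39). Cxcl12, which retains neutrophils in bone marrow through CXCR4, was at 2.45 to 5.73 FPKM in WT and 1.59 to 2.26 in the knockout group (log2 fold change -0.81, adjusted p = 0.455). The scavenging receptor gene Ackr4 had one of -1.43 (adjusted p = 0.436), with its highest value, 7.12 FPKM, in the smooth muscle-rich WT library 3. Ccrl2, an atypical receptor gene, had overlapping groups (0.53, adjusted p = 0.672).

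The calls on the chemokines depended on which libraries entered the fit. Without WT library 1 Cxcl1 alone of the 8 genes was called, and without WT library 2 Cxcl1 and Cxcl3 were. Without knockout library 1 they were Cxcl1, Cxcl2 and Cxcl5. Without WT library 3, knockout library 2 or knockout library 3, 0 members were called by limma, and all 5 tested had an unadjusted p under 0.05. Over these fits the log2 fold change ran from 3.16 to 3.58 for Cxcl1, 3.19 to 3.86 for Cxcl2 and 2.34 to 2.45 for Cxcl3.

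**Figure D5:**
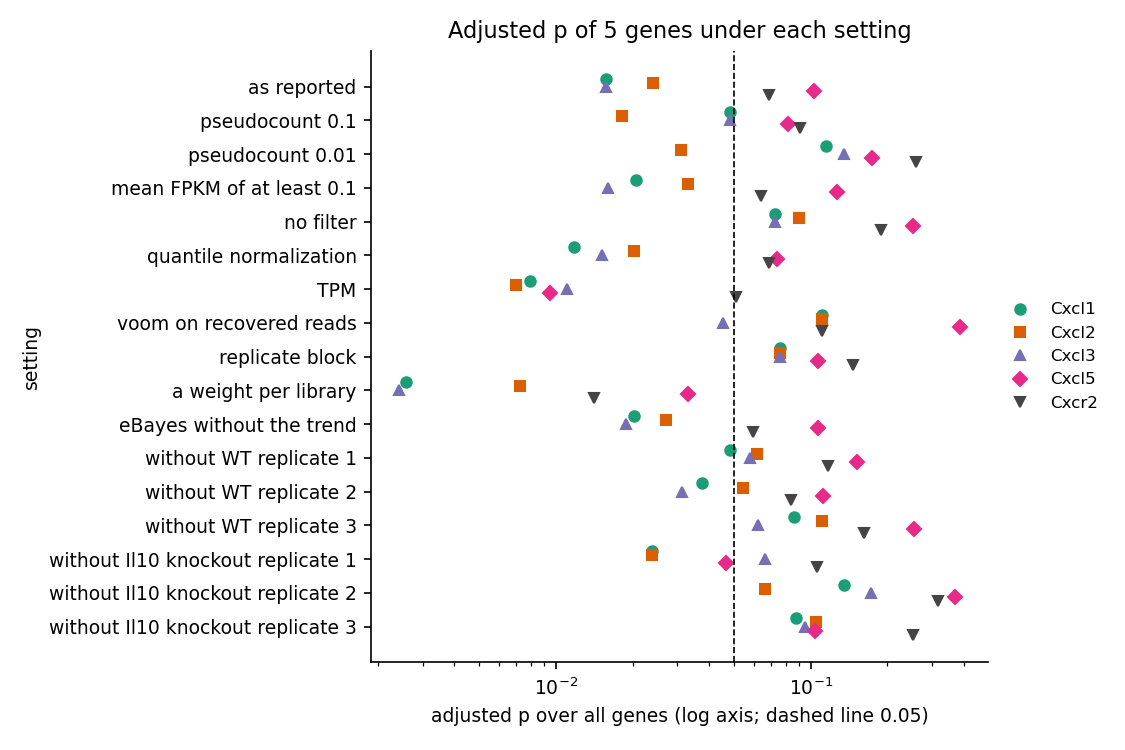
Adjusted p (log axis, dashed line at 0.05) of the 5 tested members as reported and under 16 other settings, 1 row each. Points of Cxcl1, Cxcl2 and Cxcl3 lie on both sides of the line, between 0.00243 and 0.173.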

How the data were processed

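RNA of 6 colon libraries (3 per label) was compared. The authors deposited 1 table of FPKM values with gene coordinates and lengths, per the file headers; Bowtie 0.12.2 and the builds hg38 and mm8 stand in the submitters' processing notes with no role given. The labels name no counter or strand setting. Of 54409 identifiers found in GENCODE M21, 98.3% had identical coordinates, so GRCm38 is used. Multiplied by length, 100% of FPKM values above 0 were whole multiples (tolerance 0.01) of what 1 read is worth in that library, which gave the reads. The smallest chi-square per gene between 2 libraries was 60.7, so none was another library sequenced again. This does not show whether each library came from its own mouse. The precision is limited by read numbers; floors of 3 reads cover counting error only.

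Values were tested as log2(FPKM + 1) with limma 3.58.1 in R 4.3.3 (eBayes with trend, no block, mean FPKM of at least 1, Benjamini-Hochberg adjustment over 12668 genes, threshold 0.05), after a test on simulated data. Python 3.11.15 and matplotlib 3.10.9 were used besides. The members and lists were chosen with earlier results of these data known. All 8 members are named, up to 3 genes with the smallest p per pathway list, the 3 genes most like each tested member, the genes of the cluster, and markers at 0 or most abundant in their list. Some genes that this rule selects are not reported here. Alternatives were other pseudocounts, filters, scalings and eBayes settings, voom on recovered reads, a replicate block, a weight per library and leaving out each library.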

Additional observations from a re-analysis of the deposited data

How the results depend on the processing

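In all 16 alternative settings the log2 fold changes of Cxcl1, Cxcl2, Cxcl3, Cxcl5 and Cxcr2 stayed above 0. Cxcl1 was called in 9 of them (adjusted p 0.00259 to 0.135), Cxcl2 in 8 (0.00696 to 0.111), Cxcl3 in 8 (0.00243 to 0.173), Cxcl5 in 3 (0.0095 to 0.387) and Cxcr2 in 1 (0.0141 to 0.317). The settings reuse the same libraries and add no independent support. With a pseudocount of 0.01, 9 genes were higher and 1 member, Cxcl2, was called; Cxcl1 was at 5.41 (adjusted p = 0.115) and Cxcl3 at 8.75 (0.135). With no filter, 27418 genes were adjusted for, 4 were higher and 0 members were called by limma (5 at an unadjusted p under 0.05), with log2 fold changes of 3.34, 3.54 and 2.40 for Cxcl1, Cxcl2 and Cxcl3 (0.0723, 0.0902 and 0.0723). Voom on recovered reads called 2 genes higher and 1 member, Cxcl3; Cxcl1 was at 5.32 and Cxcl2 at 5.45 (0.111 for both). Quantile normalization called 1 gene lower. TPM called 44 higher and 2 lower with a median over all genes of 0.15, and Cxcl5 at 5.61 (0.0095). A weight per library called 237 higher, 94 lower and 5 members, Cxcl5 at 4.34 (0.0329) and Cxcr2 at 2.21 (0.0141). The cause of these shifts was not tested.

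Replicate numbers are shared between the labels. Deviations of same-numbered libraries correlated at -0.149, 0.18 and 0.396, and those of differently numbered libraries at -0.388 to 0.177. With so few libraries these values do not settle whether the numbers mark pairs. The reported fit did not take them as pairs, and the calls on the members depended on that choice. With a replicate block 7 genes were higher and 0 members were called by limma (5 at an unadjusted p under 0.05), with Cxcl1, Cxcl2 and Cxcl3 at 3.34, 3.54 and 2.40 (adjusted p = 0.076 for each).

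With 1 library left out, 4 to 27 genes were higher, 0 to 3 lower, and 0 to 3 members called. Log2 fold changes ran from 3.16 to 3.58 for Cxcl1, 3.19 to 3.86 for Cxcl2, 2.34 to 2.45 for Cxcl3, 3.83 to 5.54 for Cxcl5 and 1.85 to 2.28 for Cxcr2. Depth limits Ppbp, Cxcl15 and Cxcr1, with 10, 1 and 10 reads over the 6 libraries.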

Other observations

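Some genes used as neutrophil markers were present in WT libraries in which Cxcr2 had 0 reads. Ly6g, a neutrophil surface gene, had 124, 0.322 and 16.0 FPKM in WT libraries 1 to 3, against 337, 368 and 388 FPKM under the knockout label. Cd177 had 44.6, 0.427 and 19.0 FPKM in WT, against 68.9, 150 and 121 FPKM. S100a9 had 0 reads in all 3 WT libraries. WT library 1 thus held Ly6g and Cd177 without a read of S100a9, Cxcr2 or Cxcl3, and the source of those reads was not tested.

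Retnlg, a gene of mature neutrophils, had 7.08, 33.6 and 42.8 FPKM in knockout-labelled libraries 1 to 3, lowest in the library in which Cxcl5 (121 FPKM) and S100a8 (1150 FPKM) were highest. Csf3r, the receptor gene for granulocyte colony-stimulating factor, was at 3.89, 9.30 and 5.68 FPKM there, in the same order as Cxcr2. These genes were picked after their values had been seen.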
